A study of Mus musculus with 24 samples.

Results

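The 7 probes described here carry the names mmu-miR-720, mmu-miR-2132, mmu-miR-2133, mmu-miR-2134, mmu-miR-2137, mmu-miR-2141 and mmu-miR-2146 (written below without the species prefix). They were picked by name from the 599 mouse and viral miRNA probes of an nCounter panel, which counts a fluorescent barcode for each captured small RNA. Each lane of the assay held 1 sample, and the 24 lanes fell into 7 groups. JygMC(A)-GFP/Luc cells, a mouse mammary carcinoma line that carries a luciferase and eGFP fusion from a lentivirus, were grown as monolayers (n = 2) or as 3D-spheres of the third generation (n = 2). Female Balb/C nude mice, which lack mature T cells, received the same cells in the fourth mammary fat pad. Carcinoma areas (n = 5) and EMT-like areas with spindle-shaped cells (n = 7) were cut by laser from the primary tumors (PT), and lung metastasis samples (n = 4) from the lungs. Normal mammary gland (NMG, n = 2) and normal lung parenchyma (n = 2) came from Balb/C nude mice as well, and no sample was described as drug treated. The tumor samples came from 8 animal labels, so carcinoma, EMT-like and metastasis samples partly share animals. Replicate 1 of each of these 3 tumor groups carries the same label, which names 3 animals. NMG and normal lung share both of their animals. The cells are a line of tumor origin in an immunodeficient host, and the captured areas can also hold host cells.

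A miRNA is cut from a hairpin transcript and directs the repression of messenger RNAs through its seed, the bases near its start. Sequencing of small RNAs also picks up pieces of abundant structural RNAs, and several entries once listed as miRNAs were later recognised as such pieces. The entry miR-720 matches a threonine tRNA, and the miR-1937 entries are likewise tRNA-like. Entries numbered from miR-2132 to miR-2146 were listed together and are largely held to be pieces of ribosomal or other RNA. Probes of this kind therefore report on small RNA that need not come from a hairpin. Nothing in the counts of this assay tells a fragment from a processed miRNA.

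RefSeq (GRCm38.p6) held a hairpin for miR-2137 alone among the 7 members. It is shown because, of the members with calls against normal tissue, this one can be placed on the genome. The mature form lies at chrX:72992113-72992133 on the plus strand, inside the hairpin at chrX:72992079-72992144. This hairpin falls within the span of the protein-coding gene Zfp185 (chrX:72987252-73031543). Whether it is exonic or intronic there was not resolved with the annotation used here. Capitals in the mature sequence mark the seed, bases 2 to 8.
miR-2137 mature: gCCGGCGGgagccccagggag
miR-2137 hairpin: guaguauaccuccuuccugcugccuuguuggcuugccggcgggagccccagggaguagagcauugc
The mature sequence has 21 bases, of which 11 are G and 7 are C, a G and C content of 85.7%. Sequences of 2 numbered neighbours that are not members, miR-2136 and miR-2139, are given for contrast. miR-2136 was above the detection limit in 1 of 24 lanes, and the deposited values of miR-2139 did not exceed 37.
miR-2136 mature (chr9:104426163-104426183, plus strand): cUGGGUGUugacugagaugug
miR-2139 mature (chr4:139967531-139967554, minus strand): aGCUGCGCugcuccugguaacugc
Their G and C contents were 52.4% and 62.5%, and the 3 seeds differ from one another.

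The members were chosen with values of these samples already known, so the levels and differences below are descriptions. No p-value of a member is printed. Counts of members that passed a threshold stand beside the share or number of all probes that did, with nothing read from them. This was not done for fits with a sample left out, nor for unadjusted counts of alternative fits. Values named deposited are barcode counts after subtraction of the average negative control signal, taken over 6 control probes in each lane. A value was taken as detected above the mean plus 2 SD of those controls, a limit between 4.0 and 21.4. The deposited values are not scaled between lanes, and the total over the 566 mouse probes, with negative values set to 0, ran from 26420 in a monolayer lane to 2335745 in a normal lung lane, an 88.4-fold range. Totals were 62583 to 184501 in the tumor and metastasis lanes and 525697 to 590022 in NMG and the other normal lung lane. Normalized values are scaled by factors of the trimmed mean of M-values method (TMM), which differed up to 14.0-fold between lanes. Normal lung replicate 2 stood apart by its total, and monolayer replicate 1 by low values of these probes, with Actb at 3462 against 971 in monolayer replicate 2. Replicate 1 of carcinoma, of EMT-like areas and of lung metastasis, the samples labelled with 3 animals, held the highest share of the 6 low-level probes in its group. The miR-200 family, which marks epithelium, was above the limit in every tissue group and in no culture, and its normalized sum was 737 to 5035 in carcinoma, against 38.0 to 1592 in EMT-like areas. Endothelial miR-126-3p and the red cell miRNAs miR-451 and miR-144 were at 0 in all 4 culture lanes.

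The tRNA-derived entry miR-720 was the highest of all mouse miRNA probes in 20 of 24 lanes. Its deposited values were 32375, 32671, 31456, 33858 and 31885 in the 5 carcinoma samples. In EMT-like areas they ranged from 24961 to 46897 with a median of 37739, and in lung metastasis they were 30167, 14966, 25986 and 37589. The 3 tumor groups overlapped. NMG gave 126851 and 81219, and normal lung 34715 and 384023. Cultured cells were far lower, with 1063 and 2199 in monolayers and 3271 and 2840 in spheres, so that no culture lane reached any tissue lane.

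As a share of the mouse miRNA total, miR-720 made up 24.6% ± 4.10 of the carcinoma signal (SD, n = 5), 23.9% ± 2.75 of the EMT-like signal (n = 7) and 27.3% ± 3.71 of the lung metastasis signal (n = 4). The ranges of these 3 groups overlapped. NMG had shares of 22.6% and 15.4%, and normal lung of 5.88% and 16.4%. Monolayer lanes had 2.29% and 8.32%, and sphere lanes 8.45% and 8.50%. The lowest share of any tumor or metastasis lane, 19.1%, lay above both normal lung lanes and above all 4 culture lanes. Because probes capture their targets with unequal efficiency, a share of counted barcodes is not a share of RNA molecules. A share also moves when other abundant miRNAs move.

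**Figure D1:**
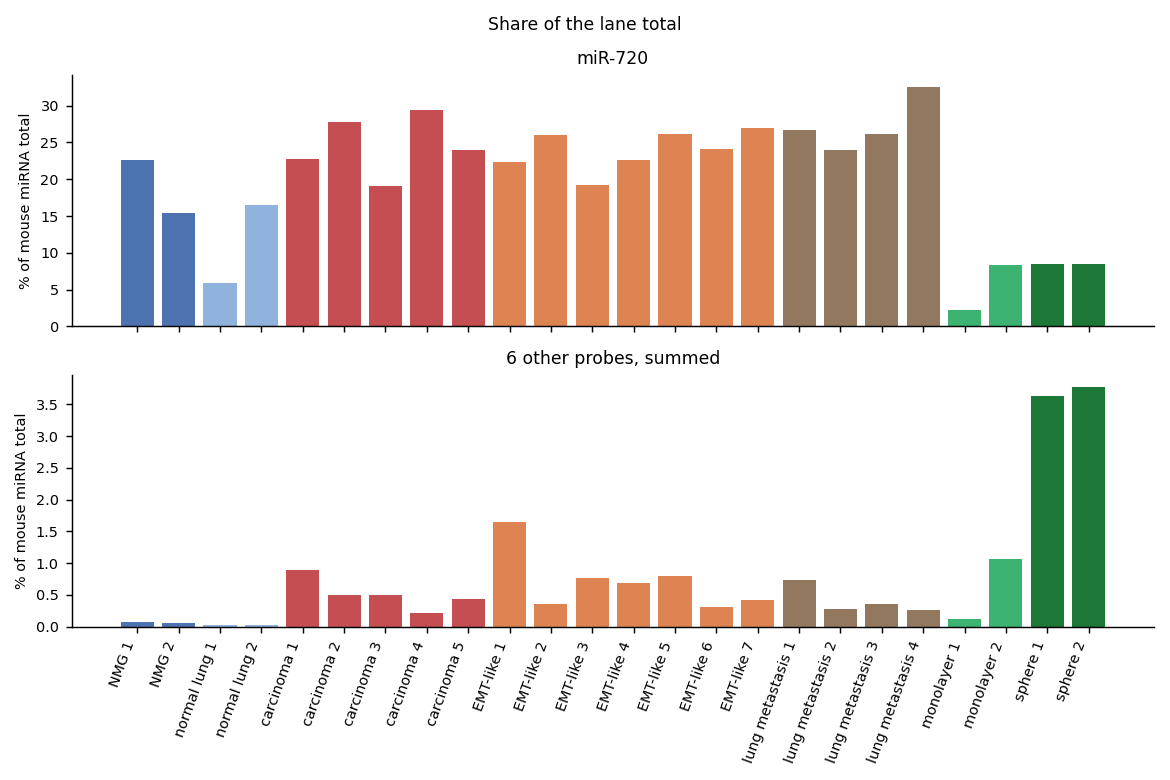
Share of the mouse miRNA total of each lane, in percent, for miR-720 (upper) and for the sum of the 6 other probes (lower); each bar is 1 lane, coloured by group. Tumor lanes sit between 19.1% and 32.6% for miR-720, whereas the sphere lanes stand out for the 6 other probes at 3.63% and 3.77%.

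The other 6 members were low-level probes. Of the 168 values of the 7 members, 155 were above the detection limit, and all 6 low-level members were above it in 18 of 24 lanes. Their summed deposited value ran from 56 in monolayer replicate 1 to 1845 in EMT-like replicate 1, a 32.9-fold range. As a share of the lane total the sum was 3.63% and 3.77% in the spheres against 0.120% and 1.06% in the monolayer. Carcinoma had 0.508% ± 0.242, EMT-like areas 0.714% ± 0.460 and lung metastasis 0.408% ± 0.217, and these overlapped. NMG was at 0.0748% and 0.0609%, and normal lung at 0.0246% and 0.0228%, below every tumor and metastasis lane. On the deposited scale this gap was absent. NMG lanes summed to 419 and 320 and normal lung replicate 2 to 533, inside the range of 172 to 1845 of the tumor and metastasis lanes, and normal lung replicate 1 to 145.

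Across the 24 lanes the 6 low-level members rose and fell together on the normalized scale, with a median Spearman correlation of 0.662 over their 15 pairs (0.151 for miR-2132 with miR-2133 to 0.864 for miR-2134 with miR-2141). After each group mean was removed, the median was 0.610. Between miR-720 and the 6 others the median was -0.134 (-0.499 to 0.110), and it turned positive with the group means removed, at 0.147 (-0.319 to 0.470, the last for miR-2133). Points of a correlation share lanes and scaling factors, and samples of a group are alike, so these values carry no p-value. Among 189 probes detected in at least 12 lanes, the profiles most like the mean of the 6 were those of miR-2135 (0.820), miR-804 (0.813) and miR-1224 (0.731). The same 3 led without scaling (0.692, 0.715 and 0.727). The probes most like miR-720 depended on the scaling. With TMM they were miR-741 (0.869), miR-193b (0.801) and the tRNA-like miR-1937c (0.759), and without scaling they were miR-1937a/miR-1937b (0.930), miR-1955 (0.926) and miR-1937c (0.923).

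**Figure D2:**
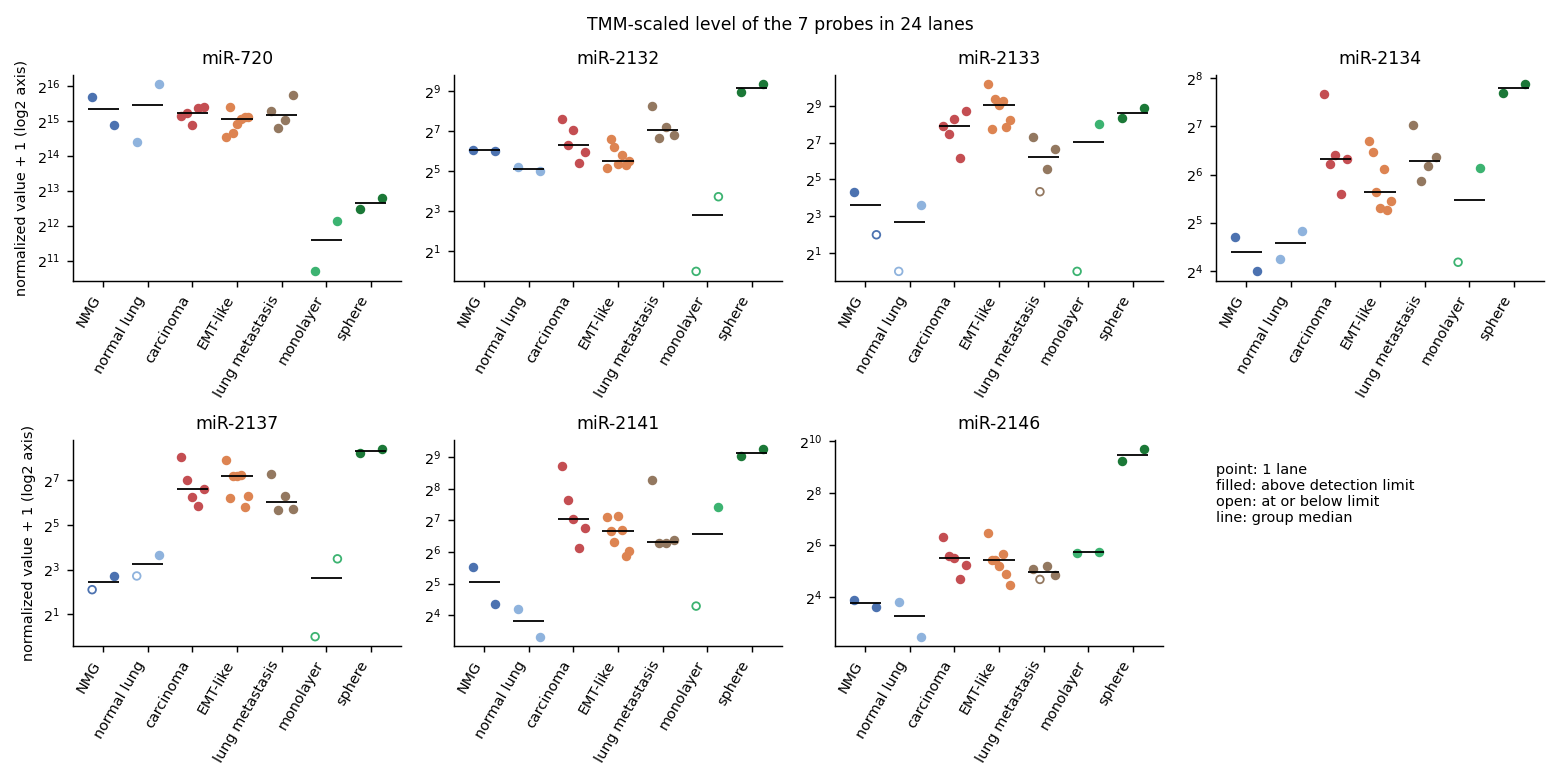
TMM-normalized value plus 1 of each probe (log2 axis) in the 24 lanes by group; points are lanes, open points are at or below the detection limit, and lines are group medians. The panel of miR-720 separates tissues from cultures, and both spheres lie above all other lanes for each low-level probe except miR-2133.

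Spheres of the third generation were compared with the monolayer. Growth without attachment and the repeated passage as spheres cannot be told apart in this comparison. All 7 members were higher in both sphere lanes than in both monolayer lanes. miR-2146 was at 349 and 334 in spheres and at 33 and 26 in the monolayer, and both monolayer lanes were above the limit. miR-2132 was at 279 and 264 in spheres and at -3 and 6 in the monolayer, where neither lane reached the limit. Likewise, miR-2137 was at 173 and 135 in spheres and at -5 and 5 in the monolayer. The spheres did not overlap the monolayer for any of these 3 probes.

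Values in the monolayer were uneven for the remaining low-level members. miR-2133 was at 185 and 188 in spheres, and at -8 and 125 in the monolayer. miR-2141 was at 300 and 245 in spheres against 12 and 84, and miR-2134 at 119 and 95 against 11 and 34. For these 3 probes the lower monolayer value belonged to replicate 1 and lay at or below the limit, and the other was above it.

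On the log2 scale of normalized value plus 1, the sphere minus monolayer difference was 3.74 (standard error 0.56) for miR-2146, 7.28 (0.83) for miR-2132 and 6.57 (0.87) for miR-2137. It was 4.60 (1.63) for miR-2133, 3.28 (0.85) for miR-2141, 2.64 (0.64) for miR-2134 and 1.22 (0.49) for miR-720. Of the 7 members, 5 were called by limma (miR-2132, miR-2134, miR-2137, miR-2141 and miR-2146), where 4.63% of 583 probes were called and 2.92% were called higher. All 7 were higher without overlap on the normalized scale, as were 10.6% of the probes. Against the limits of the monolayer lanes, the sphere level was at least 16.2-fold higher for miR-2132, and at least 9.16-fold for miR-2137, on the scale of normalized value plus 1. The median difference was 3.74 over the members, or 3.28 with these 2 at their bound, and 0 over all probes tested. Without monolayer replicate 1 only 3 members were called, miR-2132 at 5.42, miR-2137 at 4.83 and miR-2146 at 3.72, and the difference of miR-2133 was 0.60 (1.34). A fit of the 4 culture lanes alone called 0 members with limma, with 4 at an unadjusted p under 0.05, and 0 of all 583 probes.

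Other entries of this kind were uneven between the culture forms. Of the 6 numbered neighbours on the panel that are not members, limma called 1 higher in spheres, miR-2135, which was at 195 and 128 in spheres and at 6 and 65 in the monolayer. miR-2140 was at 491 and 444 in spheres but at 0 and 428 in the monolayer. It thus came near the sphere level in monolayer replicate 2. The miR-1937a/miR-1937b probe was at 1199 and 1141 in spheres and at 227 and 985 in the monolayer, and it was not called. Of the 3 other fragment entries on the panel, 0 were called with limma in this comparison, and 2 had an unadjusted p under 0.05.

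Carcinoma areas were compared with EMT-like areas to set the epithelial against the spindle-shaped part of the tumors, and 4 of the 8 animal labels gave both kinds of area. miR-2133 was at 218, 148, 328, 56 and 304 in carcinoma, and in EMT-like areas it ranged from 211 to 1219 with a median of 545. The ranges overlapped, and 5 of 7 EMT-like samples lay above all carcinoma samples. Its carcinoma minus EMT-like difference was -1.10 (0.95) on the log2 scale, and -1.49 to -0.72 over 23 alternative settings and left-out samples. The other members had smaller differences, from -0.08 (0.51) for miR-2137 to 0.75 (0.49) for miR-2132. By limma 0 of the 7 members were called, and 0 had an unadjusted p under 0.05, where 0.172% of all probes were called and 81 of 583 had an unadjusted p under 0.05. The median difference was 0.23 over the members and -0.16 over all probes.

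Within an animal the level of miR-2133 was higher in the EMT-like area in 4 of 4 animal labels with both kinds of area, by a mean of 1.52 on the log2 scale (SD 1.45, range 0.27 to 3.20). The deposited pairs, EMT-like against carcinoma, were 1219 against 218, 211 against 148, 748 against 56 and 545 against 304. No other member had the same direction in all 4 pairs on this scale, and on the deposited scale miR-2146 was also higher in 4 of 4. The animals fall into those labelled with letters and those labelled with numbers only. The carcinoma minus EMT-like difference of miR-2133 was -1.06 among the lettered animals (3 and 2 samples) and -1.33 among the numbered ones (2 and 5 samples). For miR-2132 it was 1.11 among the lettered and 0.04 among the numbered animals.

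Lung metastasis was compared with PT to follow the probes from the primary site to the lung. miR-2133 was at 117, 10, 36 and 68 in lung metastasis, and the second of these was at or below the limit. This lay below all EMT-like samples and overlapped carcinoma, where the lowest sample was at 56. miR-2132 was at 230, 53, 116 and 76 in lung metastasis and at 173, 66, 136, 33 and 45 in carcinoma. EMT-like areas had 36 to 95, with a median of 59. The groups overlapped for this probe on the deposited scale. The lung metastasis minus PT difference was -2.31 (0.94) for miR-2133 (-3.63 to -1.76 over 27 alternatives) and 1.16 (0.48) for miR-2132 (0.63 to 1.34), with the other 5 members between -0.56 (miR-2137) and 0.22 (miR-2134). By limma 0 members were called, where 2.74% of all probes were called. An unadjusted p under 0.05 was found for 2 members and for 86 of 583 probes. A fit of only the groups compared called 1 member, miR-2133, where 24 of 583 probes were called. The median difference was -0.11 over the members and 0 over all probes.

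In animals with both samples, lung metastasis was below the EMT-like area for miR-2133 in 4 of 4, by a mean of -2.88 (SD 1.34). It was above it for miR-2132 in 4 of 4, by a mean of 1.91 (SD 0.84). The deposited values of miR-2132, metastasis against EMT-like, were 230 against 36, 53 against 41, 116 against 49 and 76 against 59. On the normalized scale miR-2134 was also higher in 4 of 4 (mean 0.68, SD 0.29), but on the deposited scale in 1 of 4. On the deposited scale miR-2137 and miR-2146 were lower in lung metastasis in 4 of 4, and on the normalized scale in 3 of 4 and 2 of 4. In the 2 animal labels with both lung metastasis and carcinoma, miR-2132 was higher in metastasis in both, by a mean of 0.68 (SD 0.04), and miR-2133, miR-2134, miR-2137, miR-2141 and miR-2146 were lower in both, by means from -2.51 (SD 2.63) for miR-2133 to -0.47 (SD 0.03) for miR-2141, with miR-2133 not above the limit in 1 of the metastases.

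**Figure D3:**
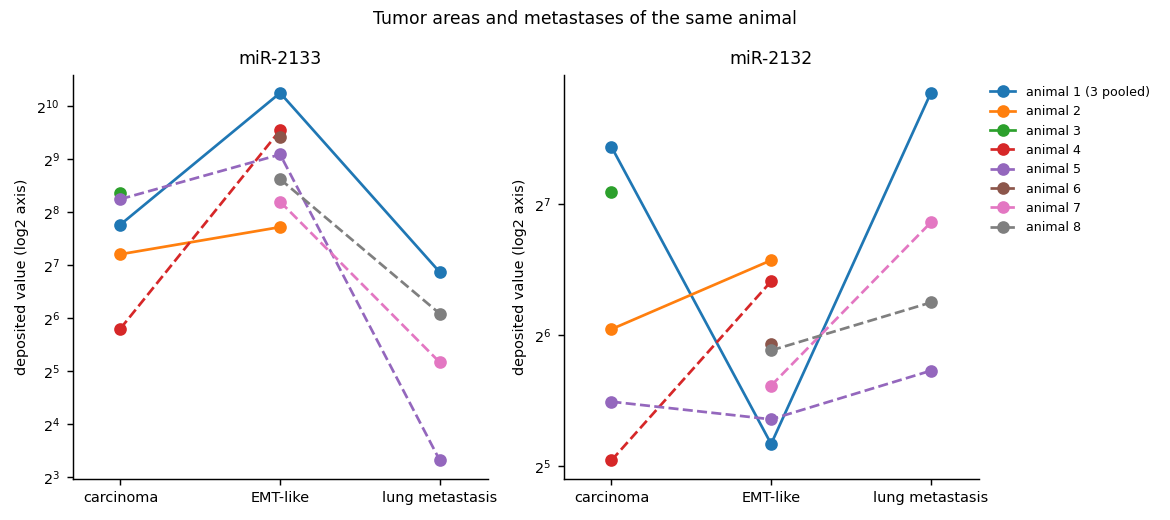
Deposited values (log2 axis) of miR-2133 and miR-2132 in carcinoma, EMT-like and lung metastasis samples; lines join samples of 1 animal label, solid for lettered and dashed for numbered animals. Lines of miR-2133 rise from carcinoma to EMT-like in 4 of 4 and drop to lung metastasis in 4 of 4, while those of miR-2132 rise to lung metastasis in 4 of 4.

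The proportion between low-level members of the same lane does not depend on scaling. miR-2133 made up 55.0% ± 10.2 (SD, n = 7) of the sum of the 6 in EMT-like areas, against 31.4% ± 14.3 (n = 5) for carcinoma and 13.0% ± 6.87 (n = 4) for lung metastasis. NMG lanes had 11.0% and 2.50%, normal lung 0% and 11.6%, and spheres 13.2% and 14.9%. Conversely, miR-2132 made up 28.9% ± 3.50 in lung metastasis, against 12.5% ± 3.34 for carcinoma and 7.28% ± 4.36 for EMT-like areas. Its lowest share in metastasis, 24.5%, was above the highest in carcinoma, 16.7%, and in EMT-like areas, 15.7%. In NMG it was at 38.4% and 54.1%, and in normal lung at 40.0% and 32.6%.

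As a ratio, miR-2133 over miR-2132 was 2.22 to 33.9 in EMT-like areas (median 8.80), 1.26 to 6.76 for carcinoma (median 2.24) and 0.895 or less for lung metastasis. All 4 metastases were below 1 and below all 12 primary tumor samples. Of the members, these probes had the lowest and the highest lung metastasis minus PT difference, which favours such a gap. Ratios of other pairs were not taken. Spheres were at 0.663 and 0.712, and the NMG and normal lung lanes with a detected miR-2133 at 0.286 and 0.356. miR-2133 itself was not above the limit in lung metastasis replicate 2, NMG replicate 2 and normal lung replicate 1, so the ratios there are upper bounds only, of 0.343, 0.0600 and 0.255. No ratio was taken for the monolayer, where miR-2132 was not detected. miR-2146 set the spheres apart from tumors within the 6, with 24.8% and 26.5% of the sum there and 3.03% to 8.06% in the tumor and metastasis lanes, but monolayer lanes were at 58.9% and 9.29%.

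**Figure D4:**
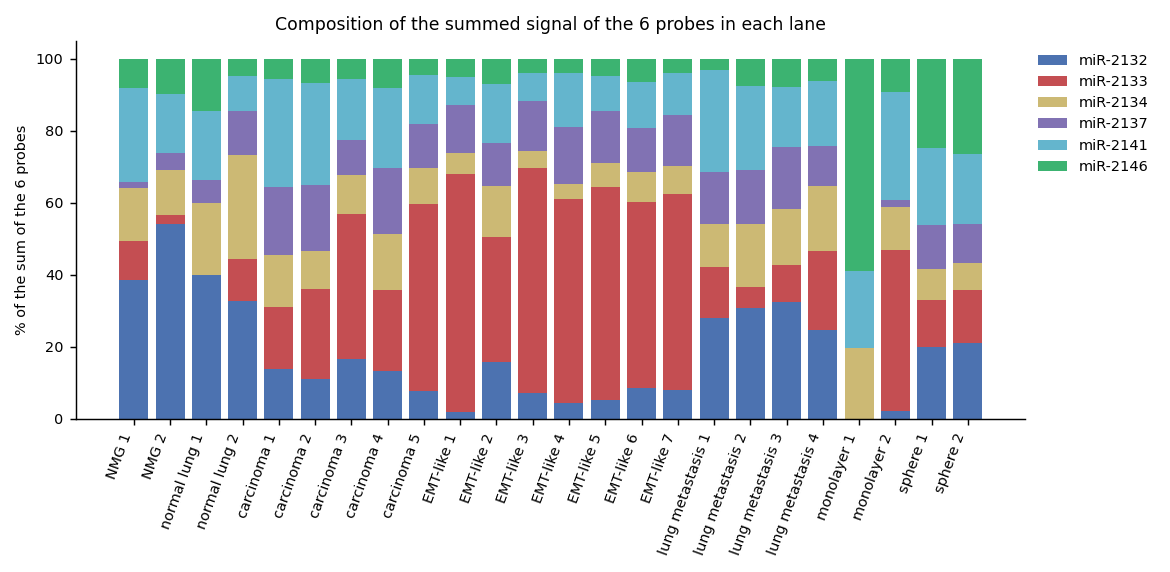
Composition, in percent, of the summed deposited values of the 6 low-level probes in each lane (negative values set to 0); colours are probes. miR-2133 takes 34.8% to 66.1% of the EMT-like bars and 5.81% to 21.9% of the lung metastasis bars.

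Tumor samples were compared with normal tissue to find what sets the tumors apart, and here the scaling decided much of the outcome for these probes. miR-2137 was at 238, 109, 78, 46 and 72 in carcinoma, with 70 to 247 (median 153) for EMT-like areas. In NMG it was at 8 and 15, with only the second of these above the limit. Thus all 12 tumor samples lay above both NMG samples before any scaling. miR-2133 was at 46 and 8 in NMG, also below all 12 tumor samples, of which the lowest was at 56. By contrast, miR-2132 was at 161 and 173 in NMG, above the deposited values of the other 11 tumor samples once carcinoma replicate 1, at 173, is set aside. For miR-2146, NMG was at 34 and 31, which lay inside the carcinoma range of 20 to 72 and the EMT-like range of 28 to 93. For miR-2141 (109 and 53 in NMG) and miR-2134 (61 and 40) the groups overlapped as well.

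After TMM scaling the carcinoma minus NMG difference was 4.55 (standard error 1.36) for miR-2133, 4.35 (0.73) for miR-2137, 2.32 (0.71) for miR-2141, 2.10 (0.54) for miR-2134 and 1.70 (0.47) for miR-2146. These 5 members were called higher, where 29.3% of all probes were called and 5.49% were called higher. The differences of miR-2132 and miR-720 were 0.41 (0.69) and -0.07 (0.41). For EMT-like areas the values were 5.66 (1.31) for miR-2133, 4.43 (0.70) for miR-2137, 1.60 (0.68) for miR-2141, 1.50 (0.51) for miR-2134 and 1.59 (0.45) for miR-2146. All but miR-2141 of these were called, 4 members, where 24.9% of all probes were called and 4.46% were called higher. Markers of other cells moved with these comparisons. Normalized miR-126-3p of endothelium was 9882 to 16155 in NMG, 1015 to 1752 in carcinoma and 1190 to 2457 in EMT-like areas. The red cell pair summed to 7971 to 8374, 77.4 to 203 and 72.0 to 263, and the 3 stromal miRNAs (miR-145, miR-143 and miR-199a-3p) to 12704 to 12910, 1450 to 2474 and 1583 to 3355. Basal miR-205 was at 1316 to 1505 in NMG, 16.3 to 129 in carcinoma and 15.0 to 83.8 in EMT-like areas, and the part of these cells in the differences was not tested. On the normalized scale 5 members did not overlap NMG in either comparison, where 7.72% of all probes were higher without overlap in carcinoma and 9.43% in EMT-like areas. The median over the members was 2.10 and 1.59, and over all probes -0.68 and -0.30. The 2 comparisons share the NMG samples.

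Without scaling the median of all probes moved by -1.15 in carcinoma and -0.86 in EMT-like areas against NMG. miR-2137 was then still called higher, at 2.96 in carcinoma, with 3.42 for EMT-like areas, and miR-720 was called lower, at -1.65 and -1.49. miR-2133 was called in EMT-like areas only (4.62), and its difference in carcinoma was 3.13. miR-2134, miR-2141 and miR-2146 kept a positive sign, between 0.20 and 0.78 in carcinoma, and were not called. The sign of miR-2132 in carcinoma turned to -1.15. Among all probes the calls in carcinoma were 32 higher and 139 lower with TMM, and 5 higher and 289 lower without scaling. In EMT-like areas they were 26 higher and 119 lower with TMM, and 10 higher and 201 lower without scaling. Scaling by the 4 mRNA control probes called only miR-2133 and miR-2137 in both comparisons, with differences from 3.50 to 4.75. Of all probes it called 6 higher in each comparison, and 172 lower in carcinoma and 164 lower in EMT-like areas. Scaling by the miRNA total or by the 100 most abundant miRNAs called 5 members higher in each comparison, miR-2141 included. Among all probes 46 and 49 were called higher with the total, in carcinoma and EMT-like areas, and 58 and 74 with the 100 most abundant. Without NMG replicate 2, only miR-2137 was called in either tumor comparison.

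Lung metastasis was set against normal lung, which came from other animals. The deposited values of miR-2137 were 119, 26, 61 and 35 in lung metastasis and 9 and 65 in normal lung. For miR-2141 they were 234, 40, 60 and 56 against 28 and 51, for miR-2132 230, 53, 116 and 76 against 58 and 174, and for miR-2146 25, 13, 28 and 19 against 21 and 26. All 4 probes overlapped. miR-2134 at 99, 30, 56 and 56 against 29 and 155, and miR-2133 at 117, 10, 36 and 68 against -2 and 62, overlapped also. The higher normal lung value was that of replicate 2, the lane with the largest total, for each of these 6 probes.

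With TMM the lung metastasis minus normal lung difference was 4.16 (1.41) for miR-2133, 3.06 (0.75) for miR-2137, 3.04 (0.73) for miR-2141, 2.14 (0.72) for miR-2132, 1.82 (0.56) for miR-2134 and 1.81 (0.48) for miR-2146. These 6 members were called higher, where 49.2% of all probes were called and 7.03% were called higher. The same 6 did not overlap on the normalized scale, where 10.8% of all probes were higher without overlap. miR-720 was at -0.01 (0.42). The median was 2.14 over the members and -0.90 over all probes. Without scaling limma called 0 of the 6, with 0 at an unadjusted p under 0.05, and it called miR-720 lower, at -2.16. Of all probes it then called 8 higher and 377 lower. Scaling by the miRNA total or by the 100 most abundant miRNAs instead called all 7 members higher, with miR-720 at 1.47 and 1.78, so the direction of miR-720 depended on the scaling. Of all probes these settings called 92 and 95 higher. The difference of miR-2134 with no scaling was -0.28 and that of miR-2146 -0.19, opposite to TMM. Scaling by the mRNA controls also turned the sign of miR-2132 (-0.34), miR-2134 (-0.63) and miR-2146 (-0.53), and it kept miR-2133, miR-2137 and miR-2141 positive without a call. Of all probes it called 3 higher and 386 lower. Without normal lung replicate 1 or without replicate 2, 3 members were called. The difference of miR-2133 was then 2.37 (1.89), not called, without replicate 1 and 5.95 (1.89) without replicate 2. Endothelial miR-126-3p was at a normalized 771 to 2880 in lung metastasis and 61609 to 62550 in normal lung, and the red cell pair summed to 311 to 476 and 47915 to 55257. The part of these abundant host miRNAs in the lane totals and scaling, and so in the differences above, was not tested. Fewer cells of a type and less RNA per cell cannot be told apart in such samples.

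**Figure D5:**
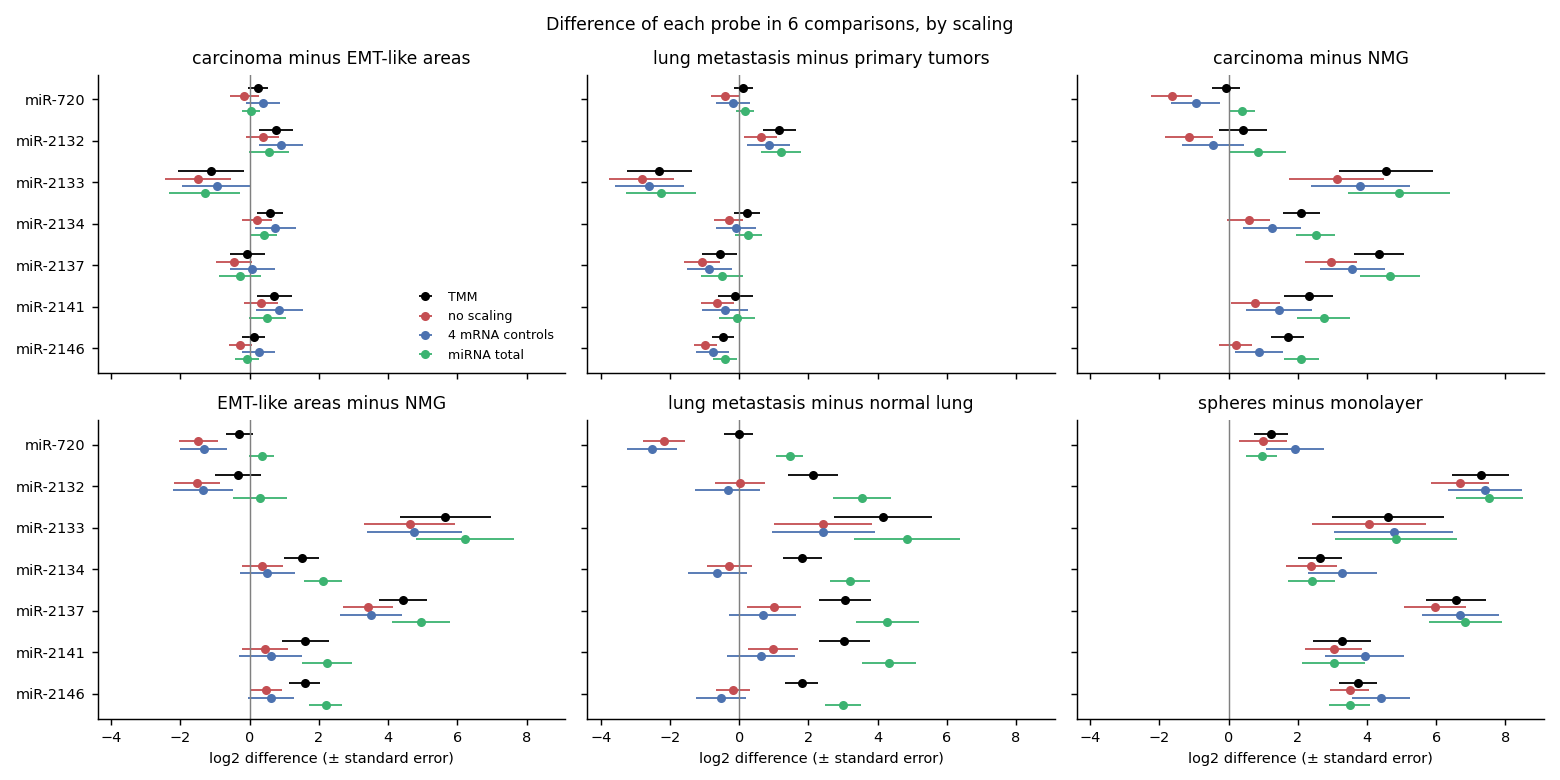
Log2 difference (x axis, with standard error) of each probe in the 6 comparisons under TMM, no scaling, scaling by 4 mRNA controls and scaling by the miRNA total. All 4 settings lie above 0 for each probe in spheres minus monolayer, with member medians from 3.49 (miRNA total) to 4.41 (mRNA controls). The settings spread over both sides of 0 for miR-720, miR-2132, miR-2134 and miR-2146 in lung metastasis minus normal lung.

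The numbered neighbours and other fragment entries showed where the members stood among related names. Of the 6 neighbours, limma called 0 against NMG in either tumor comparison, with 0 at an unadjusted p under 0.05. Against normal lung it called miR-2135, by 2.10 (0.74), and miR-2139, and miR-2139 was at or below the limit in both normal lung lanes. miR-1937a/miR-1937b was at 2974 to 4326 in carcinoma, at 3702 to 5830 in EMT-like areas and at 5698 and 10070 in NMG. Its TMM difference between carcinoma and NMG was 0.53 (0.43), and like miR-720 it was not called there. Together the miR-1937 probes made up 4.27% ± 1.05 of the lane total for carcinoma, 4.68% ± 0.473 for EMT-like areas, 6.25% ± 0.964 for lung metastasis, and 1.60% and 3.02% for the NMG lanes. miR-1274a was detected in 4 of 24 lanes, and it was called lower in carcinoma than in NMG.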

How the data were processed

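Total RNA of 24 samples was measured with the nCounter mouse miRNA assay. The authors deposited whole-number values that already had the lane's average negative control signal removed, as the values show, so these are other than plain counts and a count model was not used. The deposited values reach -20, 35.2% of miRNA values are below 0, and no scaling between lanes was found. The submitters' processing notes name Partek, with no role or version.

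Values below 0 were set to 0, scaled by TMM factors (trims of 30% and 5%, reference lane carcinoma replicate 2), and log2(value + 1) was fitted with limma (trend) over all 7 groups. Benjamini-Hochberg adjustment covered 583 probes with a value above 0 in any lane, and probes were called at an adjusted p under 0.05. In lung metastasis against PT, carcinoma and EMT-like means had equal weight. The procedure was tested on simulated data. R 4.3.3, limma 3.58.1, Python 3.11.15, numpy 2.4.6, scipy 1.17.1, pandas 2.3.3 and matplotlib 3.10.9 were used, with seed 1. The spread behind each p-value was estimated from these samples only, over all 7 groups together, and some of the samples share animals.

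The members and lists were chosen with earlier results of these data known. All 7 members are named. Neighbours and other fragment entries are named by list, and the 3 most alike probes by Spearman correlation over 24 lanes, for which the version without scaling was chosen after seeing the data.

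Pairing by animal comes from the sample descriptions, not from the replicate numbers. Deviations from group means over 183 probes correlated with a median of 0.151 (-0.296 to 0.424, 10 pairs) within a tumor animal, 0.0925 for different animals of 1 label series and -0.161 across the label series. Alternatives were other scalings, backgrounds, pseudocounts, filters and fits, the animal as a block, and leaving out each sample.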

Additional observations from a re-analysis of the deposited data

Results flagged for a closer look

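In groups of 4 to 7 samples, the highest or lowest sample was compared with its neighbour by Dixon's criterion in 42 sets of values (normalized values and shares of the lane total of the 7 probes in 3 groups), and 9 sets had a sample apart. About 1 in 20 sets would be picked by chance if values were normally distributed, and the 9 are not independent. The values were not log-transformed, and a long upper tail makes a high sample more likely to be picked. All 9 were the highest sample and all belonged to replicate 1, the samples whose label names 3 animals. In carcinoma replicate 1, miR-2134 had a normalized value of 204 against 47.5 to 84.2 in the other 4 samples, and a share of 0.129% against 0.0330% to 0.0534%. In EMT-like replicate 1, miR-2146 had a normalized value of 88.9 against 21.1 to 49.8 in the other 6. Its share there was 0.0833%, and the shares of miR-2133, miR-2134 and miR-2137 were 1.09%, 0.0968% and 0.221%. In lung metastasis replicate 1, miR-2141 had a normalized value of 308 against 76.3 to 81.6 in the other 3, and a share of 0.207% against 0.0486% to 0.0639%. Whether pooling of animals has a part in these values was not tested.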

How the results depend on the processing

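The number of the 7 members called fell with the higher background (mean plus 2 SD of the negative controls subtracted) from 5 to 2 for carcinoma against NMG, from 4 to 2 for EMT-like areas against NMG and from 6 to 3 for lung metastasis against normal lung. Of the 492 probes tested with that background, 184, 167 and 228 were called. With no scaling it was 2, 3 and 1 for these comparisons and 3 for spheres against the monolayer, and after scaling to the mRNA controls 2, 2, 1 and 3. Without scaling each of the first 3 counts includes miR-720 called lower, and with the mRNA controls the 1 is miR-720 called lower. Scaling by the miRNA total or by the 100 most abundant miRNAs gave 5, 5, 7 and 5, all higher, with miR-720 among the 7. With only the groups compared in the fit, 1 member was called for lung metastasis against PT (0 in the fit of all groups), where 24 of 583 probes were called. For spheres against the monolayer limma then called 0 members and 0 of all probes, and 4 members had an unadjusted p under 0.05. In lung metastasis against normal lung the log2 difference turned to -0.34 for miR-2132, -0.63 for miR-2134 and -0.53 for miR-2146 with the mRNA controls, and to -0.28 for miR-2134 and -0.19 for miR-2146 with no scaling. The cause was not tested. Leaving out each sample gave 0 to 0 members for carcinoma against EMT-like areas, 0 to 1 for lung metastasis against PT (1 without monolayer replicate 1 or 2), 1 to 5 for carcinoma against NMG (1 without NMG replicate 2), 1 to 5 for EMT-like areas against NMG (2 and 1 without NMG replicates 1 and 2), 3 to 6 for lung metastasis against normal lung (3 without either normal lung sample) and 3 to 7 for spheres against the monolayer (3 without monolayer replicate 1 or either sphere sample, 7 without monolayer replicate 2). A lone remaining sample borrows the spread of the other groups. With the animal or culture number as a replicate block the counts of members called were 0, 0, 5, 4, 6 and 5, the same as without the block, at a consensus correlation of -0.0051. Values near the detection limit of 4.0 to 21.4 carry little precision. This touches miR-2132 and miR-2137 in the monolayer, and miR-2133, miR-2134 and miR-2141 in monolayer replicate 1. It also touches miR-2133 and miR-2146 in lung metastasis replicate 2, and miR-2133 and miR-2137 in normal tissue.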
